A study of Mus musculus with 11 samples.

Results

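The 10 genes Ager, Hopx, Pdpn, Rtkn2, Emp2, Cav1, Cav2, Akap5, Clic5 and Gprc5a are used as markers of alveolar type 1 cells. Their open chromatin was examined in ATAC-seq peak lists, in which a transposase reads out accessible DNA. Peaks were chosen by position alone, as those whose nearest protein-coding gene body was one of these genes and lay at most 100 kb away. By that rule 1007 of the 981265 deposited peaks belonged to the 10 genes. Of these, 811 fell into the 81 regions of 400 bp that could be compared, of 83262 such regions in the series. The furthest region lay 70500 bp from its gene.

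The study held 5 libraries from Prdm3/16KO fetuses, which lack the chromatin regulators Prdm3 (gene symbol Mecom) and Prdm16 through floxed alleles and ShhCre, a Cre active in epithelium that expresses Shh. It set them against 6 Control libraries. All came from mouse fetal lungs at E17.5, and each used 50000 cells taken with EpCAM microbeads, which bind epithelium. Sires carried Prdm3fl/fl, Prdm16fl/wt and ShhCre, and dams carried Prdm3fl/fl and Prdm16fl/fl. Floxed Prdm3 alleles were thus present in all litters. The Control genotype is not spelled out further, and no label ties a library to its own animal, so p-values measure the spread between libraries, which may be technical. Peak lists do not show whether the floxed exons were deleted, so they are no check of the genotype labels. EpCAM selection mixes type 1, type 2 and airway cells. A change in the share of type 1 cells and a change per cell cannot be told apart in such bulk libraries.

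Type 1 cells are the thin, wide cells of the alveolus across which gas diffuses. They arise late in fetal life from distal lung progenitors, beside the surfactant-making type 2 cells, and NKX2-1 together with the Hippo pathway factors YAP, TAZ and TEAD is known to act at their genes. Open chromatin at a gene marks promoters and candidate enhancers and is not a measure of its RNA.

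A few promoters show the range of starting points at these genes, each as the 250 bases before an annotated start (RefSeq, GRCm38.p6, the assembly of mm10). Capitals mark CpG dinucleotides. Cav1 is shown because the region just upstream of its start was called higher in Prdm3/16KO, Cav2 because its start held the strongest peak, Hopx because its second start was called higher, and Pdpn because no region lay within 1 kb of its start.
Cav1, chr6:17306085-17306334, plus strand: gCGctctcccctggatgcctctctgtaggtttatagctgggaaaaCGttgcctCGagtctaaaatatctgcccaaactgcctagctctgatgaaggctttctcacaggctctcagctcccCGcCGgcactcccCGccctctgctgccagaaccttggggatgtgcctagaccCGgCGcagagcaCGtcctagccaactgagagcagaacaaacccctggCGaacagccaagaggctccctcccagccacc
Cav2, chr6:17280935-17281184, plus strand: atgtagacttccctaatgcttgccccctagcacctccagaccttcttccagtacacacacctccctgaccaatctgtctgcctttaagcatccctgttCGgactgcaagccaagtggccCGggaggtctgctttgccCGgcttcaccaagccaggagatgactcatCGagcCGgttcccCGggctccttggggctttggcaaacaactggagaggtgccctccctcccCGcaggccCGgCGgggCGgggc
Hopx second start, chr5:77095268-77095517, minus strand: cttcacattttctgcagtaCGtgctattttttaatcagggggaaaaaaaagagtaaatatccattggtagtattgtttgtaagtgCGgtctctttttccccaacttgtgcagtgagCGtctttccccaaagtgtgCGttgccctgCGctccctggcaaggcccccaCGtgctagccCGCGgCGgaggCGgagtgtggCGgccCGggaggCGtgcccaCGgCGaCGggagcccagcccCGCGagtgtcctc
Pdpn, chr4:143299565-143299814, minus strand: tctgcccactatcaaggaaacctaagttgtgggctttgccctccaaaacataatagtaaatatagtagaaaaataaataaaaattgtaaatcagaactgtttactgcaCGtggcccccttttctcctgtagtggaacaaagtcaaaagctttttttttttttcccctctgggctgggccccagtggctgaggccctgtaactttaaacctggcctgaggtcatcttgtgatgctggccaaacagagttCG

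The Pdpn stretch stood apart in composition, with 43.2% GC and 2 CpG. The Cav1, Cav2 and Hopx stretches had 59.6%, 62.0% and 57.6% GC and 10, 10 and 18 CpG. Over all 32851 promoters of the table the median was 52.4% GC and 6 CpG. Both strands were searched for short motifs of factors known in distal lung epithelium. The TEAD family motif was searched as GGAATG, the letters bound by partners of YAP and TAZ. For NKX2-1, the lung lineage factor, the search used CACTTGA and, as another form of the motif in this search, CACTCAA was included too. The forkhead factors were covered with TGTTTAC, since they bind many lung promoters. For AP-1, whose motif is its own reverse complement, the letters were TGANTCA with any base at the middle. A motif of the GATA-like kind was included as GATAAG. None of these motifs contains another. Among the 10 stretches of the 8 members with an entry, 2 held a match. Pdpn held TGTTTAC starting 153 bases before its start, and Cav2 held TGANTCA starting 92 bases before its own. These letters occur in 3.17% and 6.75% of all promoters, the TEAD motif in 12.6%, the GATA-like motif in 6.55% and the NKX2-1 forms in 2.68% and 2.57%. Rtkn2 and Gprc5a have no promoter entry in the table used, nor strand.

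Peak strength was expressed as a rank score within each library. The strongest of the 72935 peaks used per library scores 1, weaker ones score evenly less towards 0, and a library without a peak scores 0. Differences are Prdm3/16KO minus Control. They were fitted with limma over all 83262 regions, and a region is called where the Benjamini-Hochberg adjusted p over all regions is below 0.05. The deposited lists held 72935 to 85704 peaks in Prdm3/16KO and 79525 to 112297 in Control, of which 76 to 92 per Prdm3/16KO library and 87 to 109 per Control library belonged to the members. Read depth is unknown.

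Open chromatin was lower at some regions of the marker genes and higher at others, in nearly equal number. Of the 81 regions, 33 (40.7%) were called, 18 (22.2%) lower and 15 (18.5%) higher in Prdm3/16KO. Over all regions of the genome 37.8% were called, 20.8% lower and 17.0% higher, so neither share stood far from the background. The median difference was -0.0196 at the members, beside -0.0208 over all regions. Sizes were larger, with a median called difference of 0.385 in absolute value, beside 0.291 for all called regions. Scores of the genotypes did not overlap in 24 of the 81 regions (29.6%), beside 22.9% of all regions. The balance of directions changed with the setting, and why it did was not tested. For the lists as deposited, where more than 81 member regions were tested, 23 were lower and 10 higher (69.7% lower). With scores centred per library there were 17 and 20 (45.9% lower). Shares over all regions are not set beside these counts. Whether the shift was particular to the marker genes was therefore not tested.

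Losses and gains shared the same loci. Of the 10 genes, 7 had both a lower and a higher region (Hopx, Rtkn2, Emp2, Cav1, Cav2, Clic5 and Gprc5a), Pdpn had a higher region only, and Ager and Akap5 had none called. The lower region of Cav2 depended on how peaks were divided, and without it 6 genes had both directions. Among all genes with at least 3 regions, 39.1% held both directions, and the members mostly have more regions than the genome's median of 3. Every lower region had a peak in all 6 Control libraries, and 7 of the 18 kept a peak in all 11 libraries. In 2 of the 18 no Prdm3/16KO library had a peak, and in 3 of the 15 higher regions no Control library had one.

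**Figure D1:**
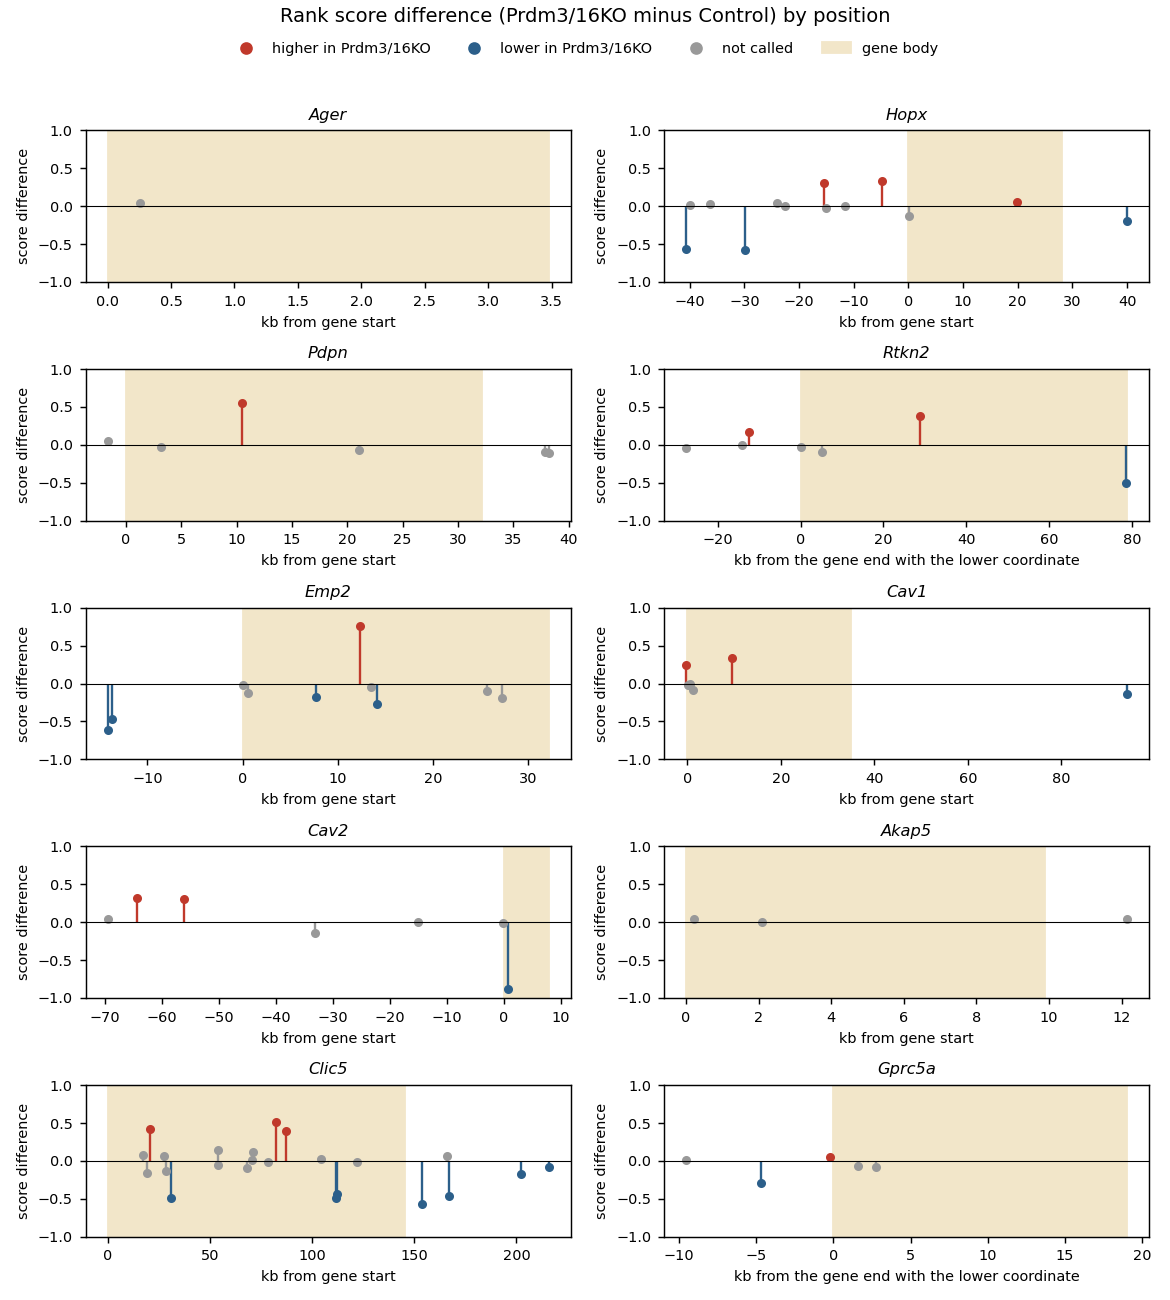
Rank score difference (Prdm3/16KO minus Control, y axis) of each of the 81 regions against its distance in kb from the gene start, or for Rtkn2 and Gprc5a from the gene end with the lower coordinate (x axis). Red points were called higher, blue points lower and grey points not called, and shading is the gene body. Lower and higher regions stand side by side at Hopx, Emp2 and Clic5, and Ager and Akap5 have no called region.

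By location, losses lay mostly outside the gene bodies. Between genes, 11 of 33 member regions were lower and 5 higher (33.3% and 15.2%), beside 23.0% and 19.5% of all such regions. Inside gene bodies the order was the other way, with 5 of 35 lower and 8 higher (14.3% and 22.9%), beside 24.8% and 19.0% of all. Within 1 kb of a gene end, 2 of 13 were lower and 2 higher, beside 9.56% and 6.60% of all. These counts are small and were not tested against the background.

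Ager, Pdpn, Gprc5a and Emp2 encode membrane proteins of the type 1 cell surface. Ager (gene 11596, chromosome 17, 34597460 to 34600937) encodes RAGE, a receptor with immunoglobulin domains that is abundant on these cells. Its 1 region, 256 bp inside the gene start, scored 0.825, 0.824, 0.850, 0.834 and 0.811 in Prdm3/16KO libraries. In Control it ran from 0.754 through a median of 0.800 to 0.813. The Prdm3/16KO values thus lay at or just above the upper end of the Control range, with 1 library overlapping, and the difference of 0.0389 was not called (SE 0.0153, limma adjusted p = 0.061). With scores centred per library it became 0.0586 and was called (limma adjusted p = 0.0206). Ranked by fold enrichment it turned to -0.0640, and with the lists as deposited it was 0.0100, neither of them called.

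Pdpn (gene 14726, chromosome 4, 143267409 to 143299564) encodes podoplanin, a mucin-type glycoprotein long used as a type 1 marker and also found in lymphatic endothelium. No region lay at its start. The region 10507 bp inside the gene, at 143288857 to 143289256, scored 0.640, 0.609, 0.601, 0.519 and 0.803 in Prdm3/16KO. In Control 4 of 6 libraries had no peak there and the highest scored 0.390, so the genotypes did not overlap. It was called higher (difference 0.554, SE 0.0802, limma adjusted p = 9.25e-05). The nearest region to the start, 1652 bp upstream, scored 0.617 to 0.745 in Prdm3/16KO and 0.527 to 0.739 in Control and was not called (limma adjusted p = 0.330). A pair of weak regions 37811 and 38215 bp from the start had no peak in any Prdm3/16KO library. They reached 0.231 and 0.205 in Control, with medians of 0.0593 and 0.128, and were not called.

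Gprc5a (gene 232431, chromosome 6, 135065662 to 135084709) encodes an orphan receptor of the G protein-coupled class that is induced by retinoic acid. Of its 5 regions, the one 4724 bp outside the gene was lower. It scored 0.161, 0, 0.162, 0.290 and 0 in Prdm3/16KO and 0.320 to 0.510 in Control, with a median of 0.407, and the genotypes did not overlap. The difference was -0.287 (SE 0.0656, limma adjusted p = 0.00348). The region 229 bp from the gene end was already among the strong peaks of both genotypes and moved little. It scored 0.875, 0.887, 0.883, 0.886 and 0.937 in Prdm3/16KO and 0.822 to 0.858 in Control (difference 0.0490, limma adjusted p = 0.00936). That call was lost with the lists as deposited (0.0269), and the call of the lower region was lost when peaks were ranked by fold enrichment (-0.0582).

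Emp2 (gene 13731, chromosome 16, 10281749 to 10313968) encodes a tetraspan membrane protein. It had 4 lower and 1 higher of 10 regions. The region 12384 bp inside the gene, at 10301384 to 10301783, had no peak in the 6 Control libraries and scored 0.774, 0.745, 0.792, 0.689 and 0.778 in Prdm3/16KO (difference 0.755, SE 0.0454, limma adjusted p = 4.19e-08). In the full deposited lists 2 Control libraries had a weak peak there. A further 1772 bp into the gene, the region at 10299612 to 10300011 went the other way. It scored 0.572, 0.586, 0.348, 0.553 and 0.645 in Prdm3/16KO and 0.672 to 0.852 in Control, without overlap (difference -0.265, limma adjusted p = 7.99e-04). Between them lay a region that was not called (difference -0.0446), and the region 7755 bp from the start had a difference of -0.179 (limma adjusted p = 0.00567).

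Upstream of Emp2, accessibility 14196 bp before the start was largely lost. The region at 10327964 to 10328363 scored 0, 0.294, 0.0766, 0 and 0 in Prdm3/16KO and 0.595 to 0.733 in Control, with a median of 0.697 (difference -0.611, SE 0.0615, limma adjusted p = 3.52e-06). The adjoining region, 13758 bp before the start, had a peak in 0 of 5 Prdm3/16KO and 6 of 6 Control libraries (difference -0.464, limma adjusted p = 0.0132). In 4 of those Control libraries its peak was the one with its summit in the first region, so the 2 are not separate observations. The start itself stayed open in both genotypes, at 0.905, 0.779, 0.884, 0.897 and 0.816 in Prdm3/16KO and 0.848 to 0.905 in Control (difference -0.0234, limma adjusted p = 0.421). Another 2 weak regions of the gene body, 25662 and 27262 bp from the start, had no peak in any Prdm3/16KO library and were not called (differences -0.0942 and -0.195).

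Cav1 and Cav2 encode caveolins, the coat proteins of the flask-shaped membrane pits called caveolae, which are dense in type 1 cells and in endothelium. The genes are neighbours on chromosome 6, Cav2 (gene 12390) at 17281185 to 17289130 and Cav1 (gene 12389) at 17306335 to 17341328. Cav1 had 2 higher and 1 lower of 6 regions. At its start the chromatin was strongly open in both genotypes, with 0.792, 0.782, 0.845, 0.853 and 0.844 in Prdm3/16KO and 0.787 to 0.882 in Control 182 bp inside the gene (difference -0.0209, limma adjusted p = 0.455). The region 291 bp before the start, which covers part of the Cav1 sequence printed above, was called higher. It scored 0.733, 0.782, 0.653, 0.532 and 0.535 in Prdm3/16KO and 0.265 to 0.541 in Control, with a median of 0.401, and overlapped at the edge (difference 0.245, SE 0.0612, limma adjusted p = 0.00615). It was not called with the lists as deposited (0.144), and the region covering it most had differences of -0.0209 with overlapping peaks merged, -0.312 with lists of 36467 peaks and -0.0784 with ranking by fold enrichment, none of them called.

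Farther along Cav1, the region 9656 bp inside the gene scored 0.493, 0.521, 0.552, 0.636 and 0.478 in Prdm3/16KO. In Control it ran from 0 through a median of 0.230 to 0.297, below every Prdm3/16KO library (difference 0.334, SE 0.0641, limma adjusted p = 9.57e-04). With lists of 36467 peaks it was no longer called (0.0833). The distal region 59130 bp beyond the gene, at 17400258 to 17400657, was lower (difference -0.136, limma adjusted p = 1.32e-04). It kept strong peaks, at 0.725, 0.714, 0.753, 0.760 and 0.759 in Prdm3/16KO and 0.825 to 0.922 in Control, with no overlap. The region at the second annotated start of Cav1, 1289 bp inside the gene, was not called (difference -0.0810, limma adjusted p = 0.0774). Without Control replicate 1 or Prdm3/16KO replicate 1 its difference was -0.0965 and -0.111, and it was called.

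Cav2 had the strongest start of the 10 genes. The region 40 bp before it scored 0.966 to 0.977 in Prdm3/16KO and 0.969 to 0.987 in Control, and did not differ beyond the spread (difference -0.00498, limma adjusted p = 0.520). The greatest nominal fall of all 81 regions was next to it, 694 bp inside the gene. There the scores were 0.0600, 0.0125, 0.169, 0.0645 and 0.148 in Prdm3/16KO and 0.969 to 0.987 in Control (difference -0.888, limma adjusted p = 9.04e-09). The value depended on how peaks were divided. In 0 of 6 Control libraries did a summit lie in that region, since 1 long peak from the start covered it, whereas all 5 Prdm3/16KO libraries had a separate weak summit. Counting only summits inside the region turned the difference to 0.0908, and merging overlapping peaks gave -0.00498. Upstream, the regions 64435 and 56127 bp before the start were higher, by 0.315 and 0.301 (limma adjusted p = 0.00531 and 0.00993). The first had a peak in 4 of 5 Prdm3/16KO and 0 of 6 Control libraries, with 0.381, 0.382, 0.521, 0.293 and 0 in Prdm3/16KO.

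**Figure D2:**
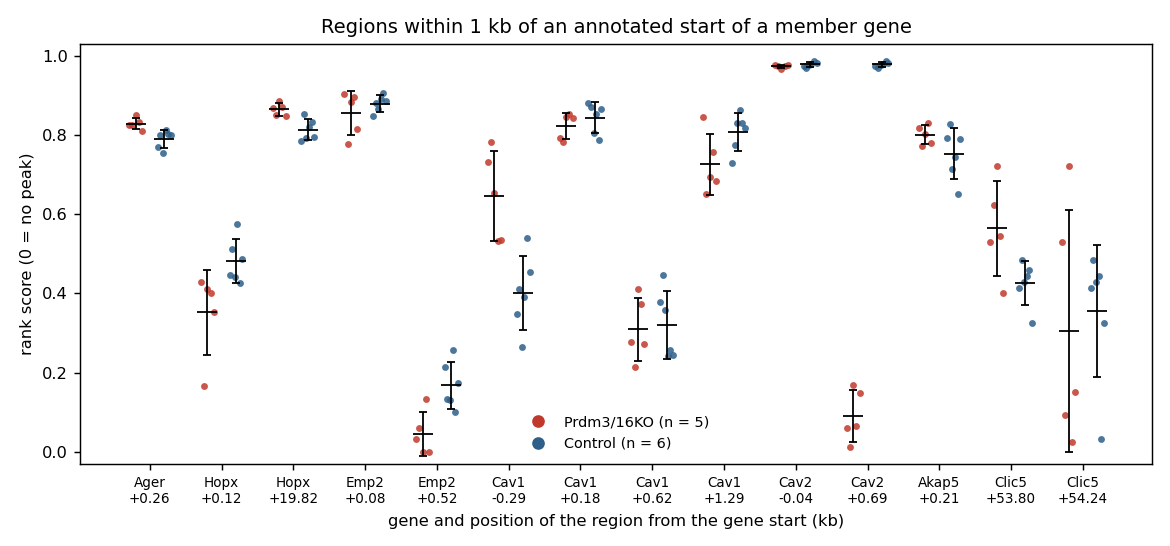
Rank score (y axis, 0 means no peak) of the 14 regions within 1 kb of an annotated start of a member gene, by position from the gene start in kb (x axis). Points are libraries, red for Prdm3/16KO (n = 5) and blue for Control (n = 6), and bars are mean and SD. Most starts overlap between genotypes, and the wide gap at Cav2 +0.69 kb is the region where all Control peaks have their summit elsewhere.

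Over the 8 genes with annotated starts, 14 regions lay within 1 kb of a start, and 11 of them were not called. The 2 higher ones were upstream of Cav1 and at the second start of Hopx, and the lower one was the Cav2 region described above. Of all 19247 regions within 1 kb of a start in the table, 9.95% were lower and 6.95% higher. With overlapping peaks merged, 1 start region of the members was called.

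Clic5, Rtkn2 and Akap5 encode proteins of signalling and the cytoskeleton. Clic5 (gene 224796, chromosome 17, 44134762 to 44280169) encodes a chloride intracellular channel protein that associates with actin. It is the longest of the 10 genes and had the most regions, 7 lower and 3 higher of 23. The 3 gains lay inside the gene, 20664, 82600 and 87126 bp from its start. The region at 82600 bp scored 0.764, 0.755, 0.740, 0.756 and 0.738 in Prdm3/16KO, and in Control it ran from no peak in 2 libraries to 0.463 (difference 0.516, SE 0.0810, limma adjusted p = 1.84e-04). The region at 20664 bp scored 0.743 to 0.777 in Prdm3/16KO and 0.178 to 0.546 in Control (difference 0.416, limma adjusted p = 1.02e-04). At both, every Prdm3/16KO library was above every Control library, and the Prdm3/16KO scores were close together.

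Of the 7 losses at Clic5, 6 lay toward or beyond its far end. The region 8372 bp past the gene, at 44288341 to 44288740, scored 0, 0, 0.190, 0 and 0 in Prdm3/16KO and 0.513 to 0.707 in Control, with a median of 0.593 (difference -0.567, SE 0.0574, limma adjusted p = 3.68e-06). The other 3 lower regions past the gene, 21375, 56861 and 70500 bp away, had differences of -0.464, -0.170 and -0.0816. Inside the gene, the regions 31176 and 111591 bp from the start had differences of -0.484 and -0.485, each with a peak in 3 of 5 Prdm3/16KO and 6 of 6 Control libraries. The lower region at 112046 bp had its summit inside the window in 1 of 6 Control libraries and was otherwise scored through a peak whose summit lay outside it. It and the region at 111591 bp are thus not separate observations. The annotated start within the gene was not called, with 0.530, 0.622, 0.723, 0.545 and 0.400 in Prdm3/16KO and 0.326 to 0.484 in Control (difference 0.138, limma adjusted p = 0.0719). Without Prdm3/16KO replicate 5 its difference was 0.179 and it was called.

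Rtkn2 (gene 170799, chromosome 10, 67979566 to 68058429) had 2 higher and 1 lower of 7 regions, the weaker gain lying 12356 bp outside the gene (difference 0.168). The intragenic region at 68008264 to 68008663 was higher, with 0.638, 0.734, 0.720, 0.743 and 0.648 in Prdm3/16KO and 0.192 to 0.456 in Control (difference 0.385, SE 0.0531, limma adjusted p = 5.92e-05). Near the gene end with the higher coordinate, the region at 68057899 to 68058298 was almost lost. It scored 0, 0, 0, 0.0976 and 0 in Prdm3/16KO and 0.396 to 0.639 in Control (difference -0.505, limma adjusted p = 9.01e-06), and was not called with lists of 36467 peaks (-0.0948). At the other gene end both genotypes had strong peaks, at 0.796 to 0.908 in Prdm3/16KO and 0.816 to 0.935 in Control (difference -0.0314, limma adjusted p = 0.287).

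Akap5 (gene 238276, chromosome 12, 76324617 to 76334517) encodes an anchoring protein for protein kinase A. None of its 3 regions was called. The start scored 0.818, 0.773, 0.802, 0.831 and 0.780 in Prdm3/16KO and 0.65 to 0.827 in Control, and the genotypes overlapped (difference 0.0478, limma adjusted p = 0.207). The other 2 regions were weak and lacked a peak in some libraries of both genotypes.

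Hopx (gene 74318, chromosome 5, 77086986 to 77115123), which encodes a homeodomain protein without DNA binding of its own, had 3 lower and 3 higher of 13 regions, 10 of them upstream of the gene. Upstream losses lay farther out than upstream gains. The region 40681 bp before the start, at 77155604 to 77156003, had no peak in any Prdm3/16KO library and scored 0.484 to 0.629 in Control (difference -0.562, SE 0.05, limma adjusted p = 1.12e-06), although it was not called with lists of 36467 peaks (-0.129). When peaks were ranked by fold enrichment, no tested region overlapped it. At 29820 bp before the start, scores were 0.340, 0.175, 0, 0.255 and 0.310 in Prdm3/16KO and 0.744 to 0.850 in Control (difference -0.583, limma adjusted p = 2.66e-06). Nearer the gene, at 15419 bp, they were 0.785, 0.719, 0.696, 0.719 and 0.684 in Prdm3/16KO and 0.233 to 0.480 in Control (difference 0.301, limma adjusted p = 1.92e-04).

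At 4780 bp before Hopx, a region at 77119703 to 77120102 was open in Prdm3/16KO libraries alone. It scored 0.381, 0.257, 0.301, 0.336 and 0.414 there and 0 in all 6 Control libraries (difference 0.338, limma adjusted p = 7.35e-05). Strong upstream regions stood between these changes without being called, such as those 36215 and 11531 bp before the start (differences 0.0252 and 0.00627). The first annotated start was not called (difference -0.129, limma adjusted p = 0.0938). The second, whose sequence is printed above, scored 0.869, 0.851, 0.887, 0.870 and 0.848 in Prdm3/16KO and 0.785 to 0.852 in Control. The small difference of 0.0520 was called (SE 0.0152, limma adjusted p = 0.0154), but not with the lists as deposited (0.0232). The remaining lower region, 11925 bp past the gene, kept a peak in all 11 libraries, with 0.365 to 0.671 in Prdm3/16KO and 0.720 to 0.788 in Control (difference -0.196).

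**Figure D3:**
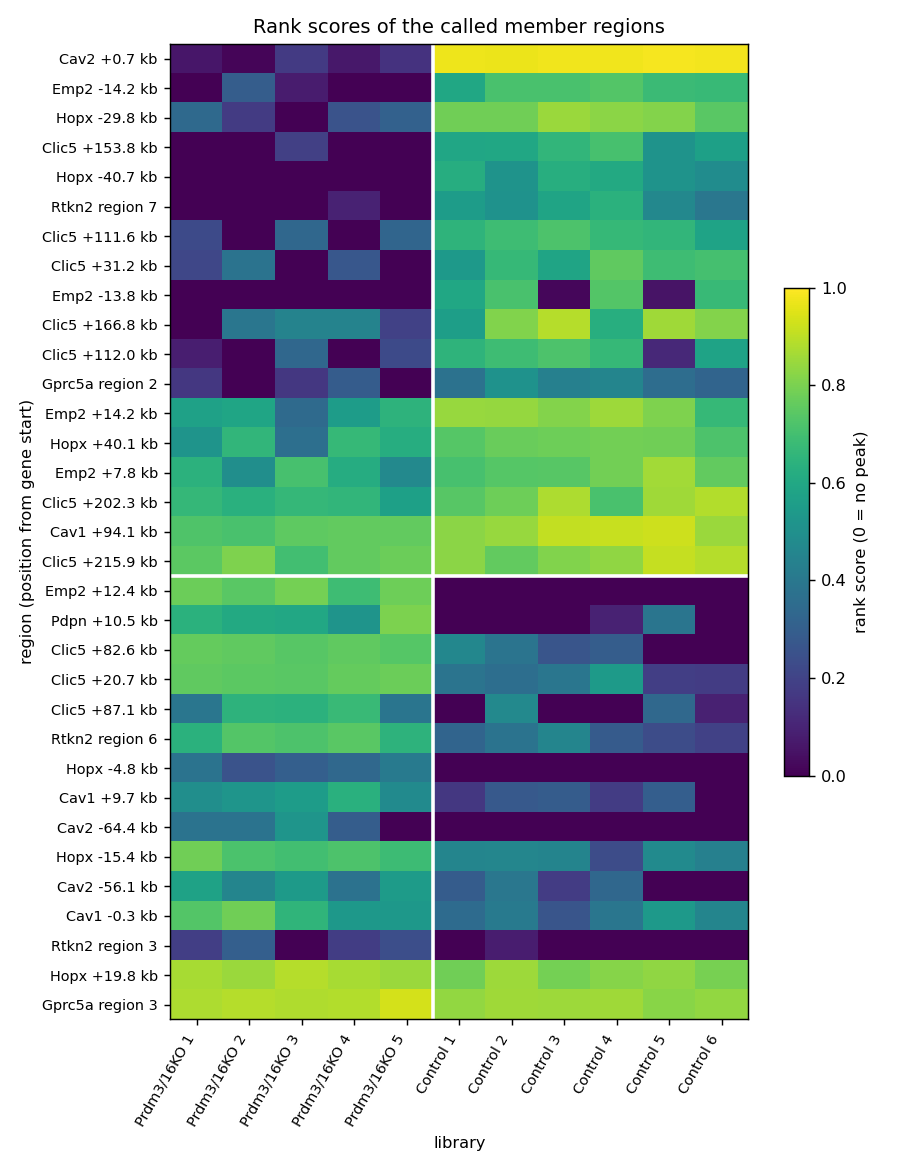
Rank scores (colour, 0 means no peak) of the 33 called regions (rows, lower ones above the white line, named by position from the gene start, or by number where strand is not known) in the 11 libraries (columns, Prdm3/16KO on the left). Within each genotype the libraries look alike in most rows, and the Emp2 region 13758 bp before the start is uneven in Control.

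Presence of a peak was also compared without ranks. Fisher's exact test, two-sided and adjusted over the 46753 regions lacking a peak in some library, called 4 of 40 member regions, 2 in each direction. Of all such regions it called 12.2%, with 6.93% more often present in Prdm3/16KO and 5.24% in Control. They were the regions fully split between genotypes, those at Hopx -40681 bp and Emp2 -13758 bp in Control, and those at Hopx -4780 bp and Emp2 12384 bp in Prdm3/16KO. Of all regions, 2.94% had a peak in every Control and no Prdm3/16KO library, and 3.89% the reverse. With any 1 Control library left out 0 member regions passed by Fisher's exact test. Its smallest unadjusted p at the members was then 0.00794, against 0.00216 with all libraries. The share of all regions passing was not computed there, so this 0 says nothing particular about the members. In those settings 9 to 10 member regions had an unadjusted p below 0.05. Limma called 17 to 21 lower and 15 to 17 higher with any library left out. Where only the 24732 regions able to reach an unadjusted p below 0.05 were adjusted for, 8 of 18 member regions were called, beside 47.2% of all.

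Averaged over all regions of a gene, 2 of the 10 genes were called, both lower, beside 18.2% lower and 11% higher of 16241 genes. Emp2 averaged 0.363 ± 0.00863 in Prdm3/16KO and 0.488 ± 0.0529 in Control (SD, n = 5 and 6, difference -0.124, limma adjusted p = 0.00374). The Emp2 mean counts both adjoining regions 14196 and 13758 bp before the start, which are not separate observations. Its libraries did not overlap, at 0.351 to 0.373 in Prdm3/16KO and 0.429 to 0.575 in Control. The call was lost with overlapping peaks merged (-0.0567) and with a −log10 q of at least 5 (-0.0433). Gprc5a averaged 0.283 ± 0.0318 in Prdm3/16KO and 0.357 ± 0.0283 in Control (SD, n = 5 and 6, difference -0.0748, limma adjusted p = 0.0255). It was not called without Control replicate 3 or 4 (-0.0702 and -0.0677) or Prdm3/16KO replicate 2 or 4 (-0.0713 and -0.0629), and it turned upwards to 0.0980 with lists of 36467 peaks. Nor was it called with scores centred per library (-0.0550), with the replicate block (-0.0816) or with presence in place of ranks.

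**Figure D4:**
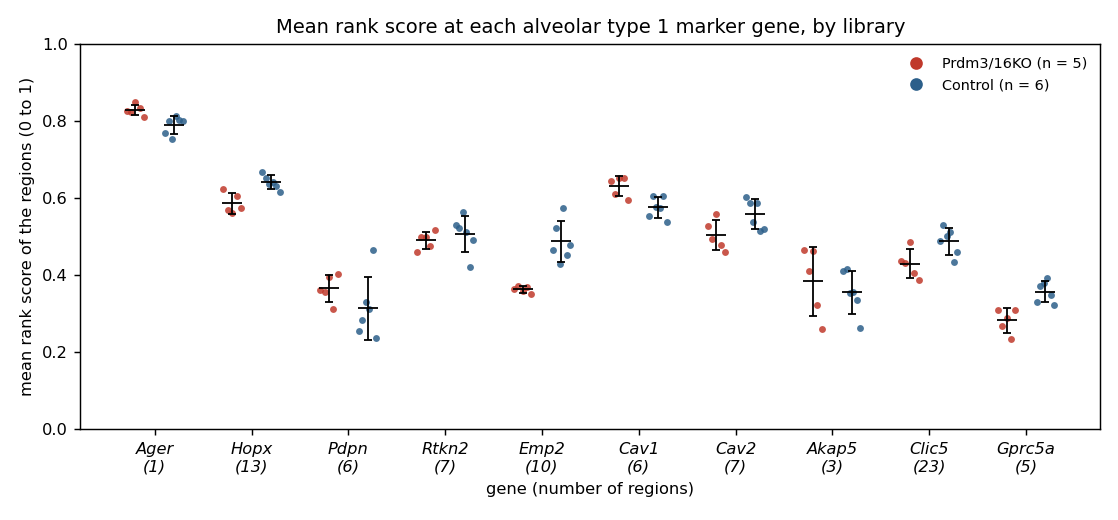
Mean rank score over all regions of each gene (y axis, 0 to 1) for the 10 genes (x axis, number of regions in parentheses). Points are libraries, red for Prdm3/16KO (n = 5) and blue for Control (n = 6), and bars are mean and SD. Only at Emp2 and Gprc5a was the mean called lower, and the Emp2 values of Prdm3/16KO lie within 0.351 to 0.373.

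The other 8 gene means were not called as reported, though some were called under other settings. Ager had the highest mean, 0.829 ± 0.0141 in Prdm3/16KO and 0.790 ± 0.0228 in Control (difference 0.0389, limma adjusted p = 0.0511), from its single region. Cav1 differed by 0.0551, Pdpn by 0.0514 and Akap5 by 0.0289, and Hopx by -0.0546, Clic5 by -0.0579, Cav2 by -0.0545 and Rtkn2 by -0.0163. Cav2 turned to 0.0830 with overlapping peaks merged and 0.0853 with only summits inside a window, called higher in both. It was called lower with regions within 50 kb (-0.259) and with a peak in at least 6 libraries (-0.110). Those lower means include the region 694 bp inside the gene, which depended on how peaks were divided. Cav1 turned to -0.141 with lists of 36467 peaks and was called lower. It was called higher with scores centred per library (0.0748), regions within 50 kb (0.0932) and a peak in at least 2 libraries (0.0639). The same held without the trend and robust options and with only summits inside (both 0.0551). Without Control replicate 5 the Pdpn difference was 0.0817 and was called, as it was with a peak in at least 6 libraries (0.127). Hopx was called lower with a −log10 q of at least 5 (-0.0581), a peak in at least 6 libraries (-0.0873) and merged peaks (-0.0718). The same held without the trend and robust options and with only summits inside a window (both -0.0546). Clic5 was called lower with that −log10 q (-0.0635) and ranked by fold enrichment (-0.0770). Ager was called without Control replicate 4 (0.0435) or Prdm3/16KO replicate 5 (0.0432). Its mean was also called with lists of 36467 peaks (0.0778), a −log10 q of at least 5 (0.0427) and scores centred per library (0.0586). Merged peaks and only summits inside a window called it too (both 0.0389). Ranked by fold enrichment it turned to -0.0640, and with the lists as deposited it was 0.0100, neither of them called.

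Further genes were read against the 20.8% lower and 17.0% higher of all regions. Of 225 regions at 20 other type 1 genes, 44 (19.6%) were lower and 42 (18.7%) higher, with a median difference of -0.0200. A region inside Lmo7, for a LIM domain protein of cell junctions, averaged 0.602 ± 0.0853 in Prdm3/16KO and 0.00673 ± 0.0165 in Control (SD, n = 5 and 6, limma adjusted p = 1.10e-06). One 65950 bp from Vegfa, for the endothelial growth factor, averaged 0.710 ± 0.0635 in Prdm3/16KO and 0.0221 ± 0.0541 in Control (limma adjusted p = 2.87e-07). At Col4a3, for a basement membrane collagen, the region with the smallest p was lower by 0.509, but like the Cav2 region its summit lay inside the window in 5 of 5 Prdm3/16KO and 0 of 6 Control libraries.

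Among 8 further caveola genes, 13 of 58 regions (22.4%) were lower and 10 (17.2%) higher, beside 20.8% and 17.0% of all regions. At the start of Cavin4, which encodes a muscle-type caveola coat protein, 0 of 5 Prdm3/16KO and 6 of 6 Control libraries had a peak, averaging 0.751 ± 0.0683 in Control (limma adjusted p = 6.56e-08). A region 1423 bp from Pacsin2, for a membrane-bending protein, was higher by 0.706 (limma adjusted p = 8.50e-07). At Cavin2 a region at the gene end was lower by 0.628, with its summit inside the window in 5 of 5 Prdm3/16KO and 0 of 6 Control libraries. Of 8 regulator genes, 21 of 99 regions (21.2%) were lower and 17 (17.2%) higher, again beside 20.8% and 17.0%. Regions inside Tead1 and Yap1, for a TEAD factor and its co-activator, had a peak in every Prdm3/16KO and no Control library, at 0.536 ± 0.0381 and 0.516 ± 0.106 (limma adjusted p = 8.58e-07 and 7.68e-06). The third gene by smallest p was Nkx2-1, with a region higher by 0.308. Over all regions of a gene none of these 3 was called, whereas the means of Wwtr1, which encodes TAZ, Gata6 and Lats2 were called lower (differences -0.139, -0.105 and -0.135, limma adjusted p = 0.0131, 0.00533 and 0.00166).

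Marker genes of other cells were read at their annotated starts, as the strongest score within 1 kb. All 5 epithelial markers with an annotated start had a peak there, with Epcam at 0.761 in Prdm3/16KO and 0.737 in Control. Of 10 type 2 genes, 24 of 59 regions (40.7%) were lower and 10 (16.9%) higher, with a median difference of -0.0987, beside 20.8% and 17.0% of all regions. Over the 7 type 2 genes with an annotated start, summed start scores were 4.74 to 5.35 in Prdm3/16KO and 5.49 to 5.80 in Control, without overlap. Sums at the 7 caveola genes with an annotated start did not overlap either, at 4.44 to 4.59 in Prdm3/16KO and 5.53 to 5.81 in Control. How often such sums separate over all genes was not computed. Among the type 2 genes, mean start scores were lower at Sftpb (0.552 in Prdm3/16KO and 0.797 in Control) and Lamp3 (0.337 and 0.675). They were higher at Lpcat1 (0.819 and 0.742) and nearly equal at Sftpa1, Abca3, Slc34a2 and Etv5. Endothelial genes, which matter here because caveolins and Clic5 are also used in endothelium, had start peaks at 4 of 6, with Tie1 and Emcn at 0. Their summed start scores were 0.789 to 1.24 in Prdm3/16KO and 1.14 to 2.23 in Control, and Tek had a start peak in 0 of 5 Prdm3/16KO and 6 of 6 Control libraries. Away from its start, a region inside Tek averaged 0.855 in Prdm3/16KO and 0.0316 in Control (limma adjusted p = 5.18e-08). Over all regions of a gene, Tie1 and Egfl7 were called higher (0.490 and 0.168) and Pecam1 and Cdh5 lower (-0.123 and -0.140). Mesenchymal genes had a start peak at 1 of 6 (Col1a2), summing to 0.504 to 0.774 in Prdm3/16KO and 0.478 to 0.772 in Control. Immune genes had one at 1 of 4 (Cd68), with 0 in Prdm3/16KO and 0 to 0.401 in Control. Airway genes had one at 1 of 2 (Sox2), summing to 0.652 to 0.748 in Prdm3/16KO and 0 to 0.741 in Control. Genes without an annotated start are missing from these sums. Among them, regions near Spi1 and Csf1r averaged 0.747 and 0.750 in Prdm3/16KO and 0.691 and 0.811 in Control. A region at a gene end of Scgb3a2 averaged 0.577 in Prdm3/16KO and 0 in Control. Over all regions of a gene, Scgb3a2 was called higher (0.495), and Cyp2f2 and Cd68 lower (-0.172 and -0.242). Lower and higher regions numbered 4 and 10 of 56 at the epithelial genes, 7 and 7 of 30 at the endothelial genes, 4 and 2 of 28 at the mesenchymal genes, 3 and 0 of 14 at the immune genes and 4 and 2 of 22 at the airway genes. In percent these are 7.14 and 17.9, 23.3 and 23.3, 14.3 and 7.14, 21.4 and 0, and 18.2 and 9.09, beside 20.8 and 17.0 over all regions. The part of other cell types in the results was not tested.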

How the data were processed

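Deposited narrowPeak lists of 11 libraries were used, without reads. Per the submitters' processing notes, build mm10, MACS2, DiffBind 3 and deepTools were used, with no roles stated. Aligner and peak-calling options were not given in the sources used here. Read from the layout, the deposited −log10 p and −log10 q and the fold enrichment (a ratio) are the authors' values for each summit within its library, so they depend on depth and were only ranked within a library. The deposited score has no unit and was not used, and the deposited summit offset gave summit positions.

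To equalise list lengths, only the 72935 peaks of greatest −log10 p were taken from each library, as many as the shortest list holds. Windows of 400 bp were centred on summits, the best rank winning among overlaps. An overlap of 100 bp or more with a peak counted as presence, a peak with its summit inside being preferred. Of 1007 deposited peaks of the members, 837 were among those used and 811 lay in a tested region. Of 102 candidate windows, the 81 with a peak in at least 3 libraries were tested, so 21 were not. Genes are 21887 protein-coding genes of RefSeq GRCm38.p6, and a region inside several gene bodies went to the gene with the nearest end.

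Rank scores and gene means were fitted by limma (version 3.58.1, R version 4.3.3) with its trend and robust settings and genotype as the only term, and presence with Fisher's exact test. P-values were adjusted over all regions or genes. The limma script was tested on simulated data. The remaining tools were matplotlib 3.10.9, statsmodels 0.14.6, scipy 1.17.1, pandas 2.3.3 and numpy 2.4.6 under Python 3.11.15. The labels give no batch. Members, gene lists and the naming rule (all 10 genes, for each the called region with the greatest fall and rise, regions fully split by genotype, start regions, and 3 genes of each list by smallest p) were chosen with earlier results of these data known, and other regions and genes were named after their values were seen. Alternatives are given in the closing section.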

Additional observations from a re-analysis of the deposited data

Results flagged for a closer look

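In 5 of 65 groups of libraries at the genes and regions named, 1 library lay far from the rest. The rule is set for about 5% of groups by chance where values are spread normally. Where all other libraries score 0, it flags a single peak of any strength, so that rate does not apply there. At the gained Pdpn region, Control replicate 5 scored 0.390, against 0 to 0.0938 in the other Control libraries. At lower regions 1 Prdm3/16KO library scored well above the others. These were replicate 4 at the lower Rtkn2 region (0.0976, others 0), replicate 2 at Emp2 −14196 bp (0.294, others 0 to 0.0766) and replicate 3 at the Clic5 region 8372 bp past the gene (0.190, others 0). At the Gprc5a gene end, Prdm3/16KO replicate 5 scored 0.937, against 0.875 to 0.887 in the others.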

How the results depend on the processing

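Counts are of member regions lower, higher, differing by presence, called at a start, and of genes called, 18, 15, 4, 3 and 2 as reported. The number of member regions tested, 81 as reported, changed with some settings. It was 68 with a peak in at least 6 libraries and with merged peaks, and 75 within 50 kb. It was 77 with a −log10 q of at least 5 and with only summits inside. No shares over all regions are set beside the counts here, so a change particular to the members was not tested. With lists of 36467 peaks 52 member regions were tested, of which 11 were lower and 13 differed by presence, and 4 genes were called. With presence in place of ranks there were 7 lower, 4 higher, 0 at a start and 1 gene. A peak in at least 6 libraries gave 2 by presence and 5 genes, merged peaks gave 1 start region and 4 genes, and centred scores gave 5 start regions. Genes called were 4 with a −log10 q of at least 5, 4 without the trend and robust options, 4 within 50 kb, and 6 when only summits inside a window counted, a setting chosen after seeing the data. Adjusting over the regions able to pass, also chosen afterwards, gave 8 by presence. Leaving out 1 library gave 17 to 21 lower, 15 to 17 higher, 0 to 5 by presence, 3 to 4 start regions and 1 to 3 genes, and 0 by presence arose without any 1 Control library, when fewer libraries leave less room for a low p. The cause of the other moves was not tested.

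The mean of Cav1 reversed to -0.141 and that of Gprc5a to 0.0980 with lists of 36467 peaks, and Gprc5a to 0.0438 ranked by fold enrichment. The mean of Cav2 reversed to 0.0830 with merged peaks and 0.0853 with summits inside only, where its region 694 bp inside the gene reversed to 0.0908. The called region 291 bp before Cav1 was not called with merged peaks (-0.0209), lists of 36467 peaks (-0.312), fold ranking (-0.0784), lists as deposited (0.144) or the presence score. Over 35 named values, 864 comparisons with an alternative could be made. Of these, 797 kept their side of the threshold, 31 lost a call, 30 gained one and 6 reversed. A named region that no tested region overlapped in a setting could not be compared and is not among the lost calls. With lists of 36467 peaks, such regions were Hopx -4780 bp, Emp2 -13758 bp, Cav2 -64435 bp, Cav2 694 bp and the lower Gprc5a region. With fold ranking, Hopx -40681 bp was such a region.

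Replicate numbers are shared by the genotypes. Deviations of same-numbered libraries correlated by -0.0234 to 0.139 over 5 pairs, and 2 of 5 Prdm3/16KO libraries correlated best with their own number. The numbers were not used as pairs in the main fit, although so few pairs cannot show that the libraries are unpaired. With the replicate block, 17 regions were lower, 15 higher, 2 start regions and 1 gene were called. Presence was not recomputed for settings of score or fit that leave it as it is, nor gene means for regions shared between genes. Read depth is unknown, so a missing peak may be a peak too weak for a list.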
